A study of Mus musculus with 13 samples.

Results

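The genes described here encode proteins that bind RNA, splice it or start its translation. They were taken from a deposited table of 4423 probe sets by gene symbol: a row entered when its single symbol began with the name of an hnRNP, SR protein, SF3, DEAD-box or DEAH-box helicase, Rbm, Prpf, Snrp, Luc7, Celf, Eif, Cpeb, Pabp or another RNA-binding protein family. The rule found 49 probe sets of 42 genes, and 4374 other listed rows served for comparison. Striatum, a forebrain nucleus that receives cortical input, was profiled on 13 Affymetrix arrays that measured 45101 probe sets each. Homozygous STEP knockout mice gave 4 arrays, heterozygous STEP knockout mice 5 and wild-type littermates 4. STEP is the striatal-enriched tyrosine phosphatase encoded by Ptpn5. All mice were naïve males on a C57Bl/6J background, and the labels give neither their age nor the design of the mutant allele. The labels do not say that each array came from a separate animal, so the p-values measure the spread between these samples.

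A pre-mRNA is matured by the spliceosome, whose small nuclear ribonucleoproteins are positioned by SR proteins and hnRNPs, while RNA helicases rearrange its RNA contacts. The finished mRNA is carried by poly(A)-binding and other RNA-binding proteins, and translation begins when eIF4 factors bring it to the ribosome and eIF2 delivers the initiator tRNA. In neurons, CPEB and Argonaute proteins hold chosen mRNAs silent, also near synapses, until they are needed.

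The table is a selection made on the same arrays, which limits what its members can show. The authors listed a probe set when its raw p-value was under 0.05 and its fold over 1.2 in the heterozygous or the homozygous comparison with wild type, as the deposited values show. Among the members, 39 probe sets were listed through the heterozygous comparison alone, 5 through the homozygous comparison alone and 5 through both. These are 79.6%, 10.2% and 10.2% of the members, against 76.7%, 12.4% and 10.8% of the other listed rows. In the authors' deposited table all 44 heterozygous folds and all 10 homozygous folds of members were positive. Their sizes ran from 1.201 for Rbm18 to 1.44 for Cpeb1 in the heterozygous comparison, and from 1.23 for a Celf4 probe set to 1.42 for Rbm20 in the homozygous one. The smallest adjusted p-value of a member in the authors' deposited table was 0.361, shared by Cpeb1 and a Cpeb3 probe set. Member genes whose probe sets were not listed have no gene name in the files used here and were not analysed.

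The column headings of the listed table went against the sample labels. The columns headed homozygous held the values of the wild-type arrays in all 4423 rows, and those headed wild type held the values of the homozygous arrays. The values of the whole array, which are keyed by sample, were used instead. With them, Ptpn5 averaged 486 ± 105 in homozygous, 1028 ± 231 in heterozygous and 1649 ± 217 in wild-type striatum (SD, n = 4, 5 and 4) on the dimmer of its probe sets, a log2 difference of -1.75 between homozygous and wild type (limma, adjusted p = 4.47e-06). The deposited homozygous and heterozygous folds matched the sample-keyed values in all 1027 and all 3874 rows. Differences between homozygous and wild type below therefore have the opposite sign to those read from the listed table's headings.

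Array brightness differed and moved with the members. The median intensity of an array ran from 143 in homozygous array 1 to 201 in homozygous array 2. Over all 45101 probe sets the median log2 difference was 0.09 between homozygous and wild type, 0.12 between heterozygous and wild type and -0.03 between homozygous and heterozygous. Values are therefore given as deposited and, where it matters, after each array was centred on its own median. No striatal neuron marker of the list used was among the listed rows, so the labelled tissue could not be checked that way.

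The arrays differed in the level of the members as a set. Measured as the median deviation of the 49 probe sets from their mean over all arrays, homozygous arrays 1 to 4 were at -0.21, 0.18, -0.05 and 0.14 on the log2 scale. Heterozygous arrays 1 to 5 were at 0.23, 0.02, 0.33, -0.09 and 0.11. Wild-type arrays 1 to 4 were at -0.17, -0.17, -0.16 and -0.18. The wild-type arrays thus lay close together (SD 0.01), while the homozygous (SD 0.18) and heterozygous (SD 0.17) arrays were spread. Over all probe sets of the array the SDs ran the same way, at 0.04 in wild-type, 0.18 in homozygous and 0.12 in heterozygous arrays. After centring the members' SDs were 0.07 in homozygous, 0.07 in heterozygous and 0.06 in wild-type arrays. Heterozygous array 3 held the highest value of 33 of the 49 probe sets, and homozygous array 1 the lowest of 20. With centred values, the highest moved to heterozygous array 5, with 22 probe sets, and the lowest to wild-type array 2, also with 22.

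**Figure D1:**
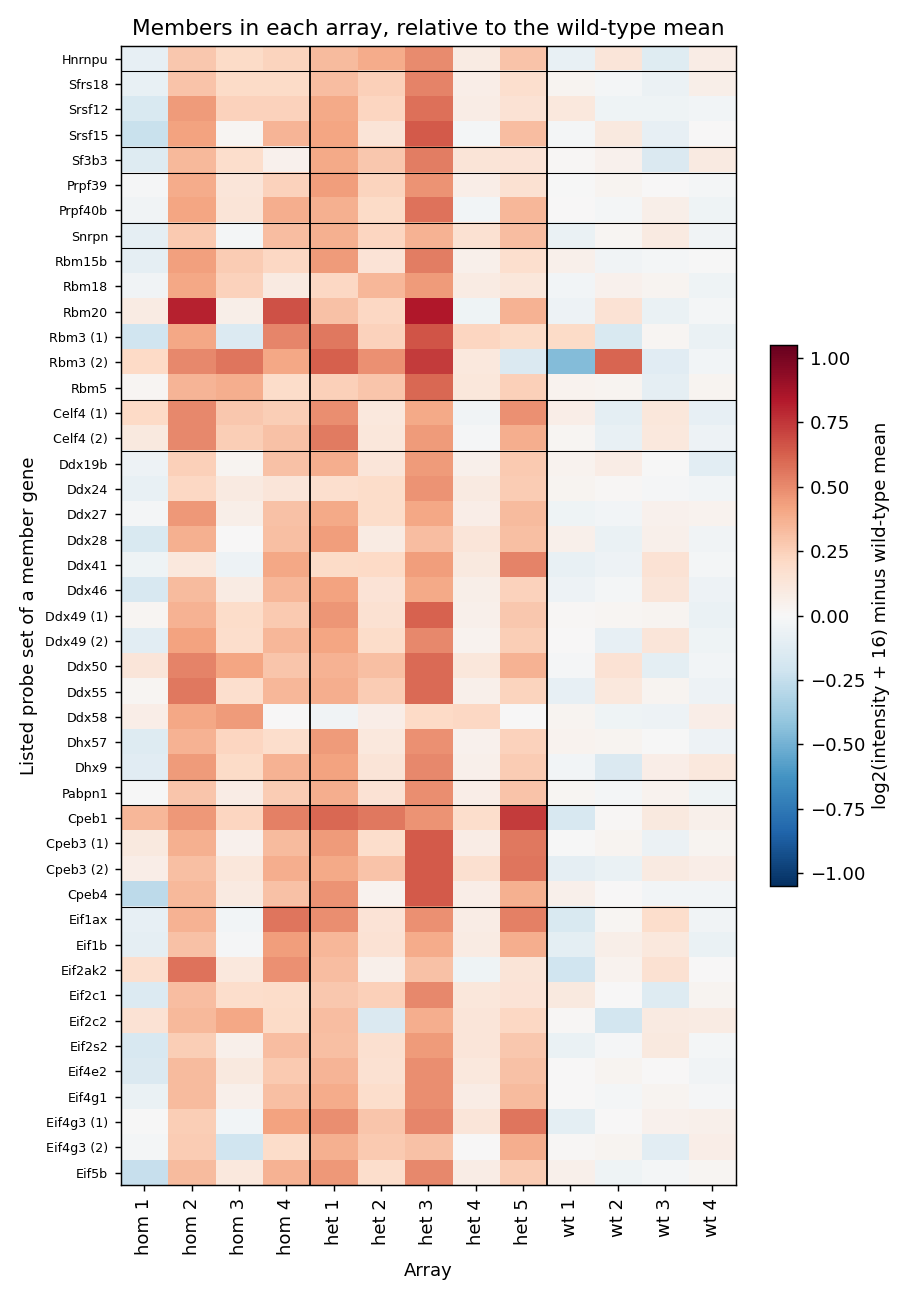
Heat map of 45 of the 49 member probe sets (rows, in order of role) over the 13 arrays (columns, homozygous, heterozygous and wild type), with colour giving log2(intensity + 16) minus the wild-type mean of that probe set. Most rows share their dark columns, heterozygous array 3 above all, and homozygous array 1 is mostly pale or blue.

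**Figure D2:**
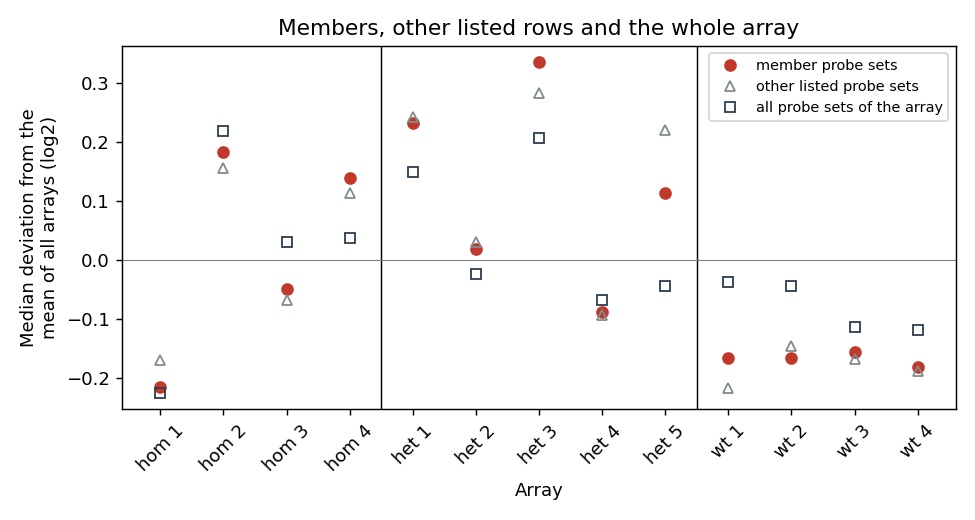
Median deviation from the mean of all arrays (log2, y axis) in each array (x axis) for the 49 member probe sets (filled circles), the 4374 other listed probe sets (triangles) and all 45101 probe sets (squares). The members follow the other listed rows, and in wild-type arrays both lie below the array-wide median.

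In heterozygous striatum, every member probe set had a higher mean than in wild type, by a median of 0.29 on the log2 scale (range 0.09 to 0.51), and none passed the test. The other listed rows had a median of 0.31, and 98.1% of them were higher. Called probe sets, at an adjusted p under 0.05 by limma over the whole array, were 0 of 49 members, against 0.00222% of the array, and the lowest adjusted p of a member was 0.287. Without adjustment 42 of 49 had p under 0.05 and were higher, against 10.8% of the array and 83.7% of the other listed rows. All heterozygous arrays lay above all wild-type arrays in 24 members, against 6.54% of the array and 27.3% of the other listed rows. Because the listing used this comparison, these counts describe the members and test nothing.

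Centring left the members higher in heterozygous striatum by a median of 0.17 on the log2 scale, against 0.20 for the other listed rows. Of the 49, 48 were higher, the exception being Ddx58 at -0.02. The unadjusted count was 31, against 5.77% of the centred array and 49.2% of the other listed rows. All heterozygous arrays lay above all wild-type arrays in 11 members, against 1.55% of the centred array and 10.9% of the other listed rows. Without heterozygous array 3 the unadjusted count before centring was 13 of 49, and without heterozygous array 1 it was 16. Over all 45101 probe sets, in either direction, it was 2755 and 2716, against 4953 with all arrays. Leaving out a wild-type array gave 22, 24, 25 and 20 members for arrays 1 to 4, against 2923, 3783, 3932 and 3025 of all probe sets. Without the 4 arrays of most extreme brightness (homozygous 1 and 2, heterozygous 1 and 3) it was 19 members, against 2988 of all probe sets. The members' median log2 difference was then 0.18.

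The listed markers of cortical excitatory neurons, a cell type next to the striatum, were all higher in heterozygous than in wild-type arrays. The listing used this comparison and so favours a difference in it. Of 12 such genes 6 were listed, with 8 probe sets, and none was at 0 on any array. Their summed intensity ran from 1510 to 3867 in homozygous, from 3757 to 7849 in heterozygous and from 1192 to 3885 in wild-type arrays. Their median log2 difference was 1.08 between heterozygous and wild type and 0.01 between homozygous and wild type. Between homozygous and heterozygous it was -1.02, while the 2 probe sets of Tshz2 went the other way, at 0.33 and 0.36. Heterozygous array 5, where 22 members peaked after centring, had the largest sum, and heterozygous array 3, where 33 peaked before centring, had 4547. The part of these cells in the members' values was not tested, and in bulk tissue fewer cells of a type and less RNA per cell cannot be told apart.

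The cytoplasmic polyadenylation element binding proteins (CPEBs), which hold mRNAs dormant and release them by lengthening their poly(A) tails, had a median log2 difference of 0.40 between heterozygous and wild type over 4 probe sets, the highest of the role groups with more than 1 gene in that comparison. The listing used this comparison, and unlisted Cpeb probe sets were not seen, so the ranking describes the listed probe sets and tests nothing. Between homozygous and wild type the median of the Cpeb probe sets was 0.22, against 0.23 for the Prpf and 0.22 for the Rbm group. The 3 listed Cpeb genes were higher than in wild type in both mutant genotypes. So were all 49 member probe sets, and this direction does not set the Cpeb genes apart. The windows of these genes run from 250 bases before to 50 bases after the annotated starts. They are RefSeq sequences of build GRCm38.p6, at chr7:81454709-81455008 on the minus strand, chr19:37207422-37207721 on the minus strand (the first of several starts of Cpeb3) and chr11:31870690-31870989 on the plus strand. Capitals mark GC boxes (GGGCGG), ETS cores (CCGGAAG), CRE cores (TGACG), E-boxes (CACGTG) and TATA boxes (TATAAA) on either strand.
Cpeb1: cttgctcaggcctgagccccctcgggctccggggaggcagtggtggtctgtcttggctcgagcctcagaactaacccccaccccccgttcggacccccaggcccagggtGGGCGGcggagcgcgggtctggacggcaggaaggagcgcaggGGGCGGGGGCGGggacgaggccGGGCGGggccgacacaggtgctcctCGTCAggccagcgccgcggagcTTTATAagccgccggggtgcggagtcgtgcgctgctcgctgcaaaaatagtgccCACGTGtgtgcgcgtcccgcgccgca
Cpeb3: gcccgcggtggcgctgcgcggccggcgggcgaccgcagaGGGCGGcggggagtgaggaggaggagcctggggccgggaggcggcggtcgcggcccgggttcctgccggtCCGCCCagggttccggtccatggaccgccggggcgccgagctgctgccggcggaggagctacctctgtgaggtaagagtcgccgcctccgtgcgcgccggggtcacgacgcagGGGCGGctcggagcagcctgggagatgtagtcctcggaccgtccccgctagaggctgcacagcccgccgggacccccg
Cpeb4: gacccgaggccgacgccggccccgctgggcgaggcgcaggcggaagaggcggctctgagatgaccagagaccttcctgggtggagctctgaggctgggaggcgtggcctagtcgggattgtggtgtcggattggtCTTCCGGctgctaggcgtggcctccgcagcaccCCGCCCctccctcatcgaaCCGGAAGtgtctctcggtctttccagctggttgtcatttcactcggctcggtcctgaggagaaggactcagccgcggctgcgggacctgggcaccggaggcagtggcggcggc

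The 3 windows differ in their letters: the Cpeb1 window holds 4 GC boxes, a CRE core, an E-box and a TATA box, that of Cpeb3 holds 3 GC boxes, and that of Cpeb4 holds 1 GC box and 2 ETS cores. Of the 42 member genes 35 had a window, with 49 windows in all, and a gene counted when any of its windows matched. Cpeb3 thus counts for the CRE core through a window not printed here. The shares are set against all 27025 genes with a window. Other listed genes were not counted, so the shares cannot tell the members from them. A GC box was found in 22 of the 35 genes (62.9%), against 38.2% of all genes with a window. An ETS core was found in 11 (31.4%), against 9.93%, and a CRE core in 13 (37.1%), against 23.1%. The full CRE (TGACGTCA), which contains that core, was found in 2 (5.71%), against 2.03%, and the E-box in 6 (17.1%), against 8.09%. The TATA box was found in 5 (14.3%), against 15.7%, and the NRF1 motif in 0, against 1.07%. A match to such letters is a description and not a binding site.

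Cpeb1, the founding CPEB, had intensities of 593, 640.1, 544 and 673 in homozygous arrays, 712, 686, 649, 528 and 778 in heterozygous arrays and 411, 467, 499 and 479.6 in wild-type arrays. As deposited, every array of either mutant genotype lay above every wild-type array, while after centring only the heterozygous arrays all did. Means were 613 ± 56.4, 671 ± 92.5 and 464 ± 37.8 (SD, n = 4, 5 and 4). The log2 difference was 0.39 ± 0.13 (SE) between homozygous and wild type and 0.51 ± 0.12 between heterozygous and wild type (limma, adjusted p = 0.909 and 0.287), so Cpeb1 did not pass the test. Without heterozygous array 4 the heterozygous difference was 0.59 with an adjusted p of 0.0359, a value under the threshold. That fit called 213 of all 45101 probe sets, against 1 with all arrays.

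Both probe sets of Cpeb3, a repressor of synaptic mRNAs, gave similar differences. On the brighter one it had 818, 991, 787 and 966 in homozygous, 1048, 868, 1204, 807 and 1127 in heterozygous and 762, 780.0, 729.9 and 780.3 in wild-type arrays. All mutant arrays were above all wild-type arrays, homozygous array 3 by the least. On the dimmer one homozygous array 1, at 312.0, lay below wild-type arrays 3 and 4, at 318.8 and 312.8. After centring, homozygous arrays overlapped with wild-type arrays on both. The log2 difference between heterozygous and wild type was 0.38 ± 0.12 on the brighter probe set and 0.41 ± 0.12 on the dimmer one (adjusted p = 0.332 and 0.311). Cpeb4, a family member that acts in late meiosis and in neurons, had 1176, 1806, 1517 and 1759.9 in homozygous, 1976, 1456, 2229, 1494 and 1847 in heterozygous and 1479, 1426, 1393 and 1394 in wild-type arrays. Here the groups overlapped, and homozygous array 1 was the lowest of all.

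Pabpn1, the nuclear poly(A)-binding protein that sets tail length, differed by 0.28 ± 0.11 between heterozygous and wild type (adjusted p = 0.403), with all heterozygous arrays (1438 to 1929.7) above all wild-type arrays (1330.0 to 1410.0).

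**Figure D3:**
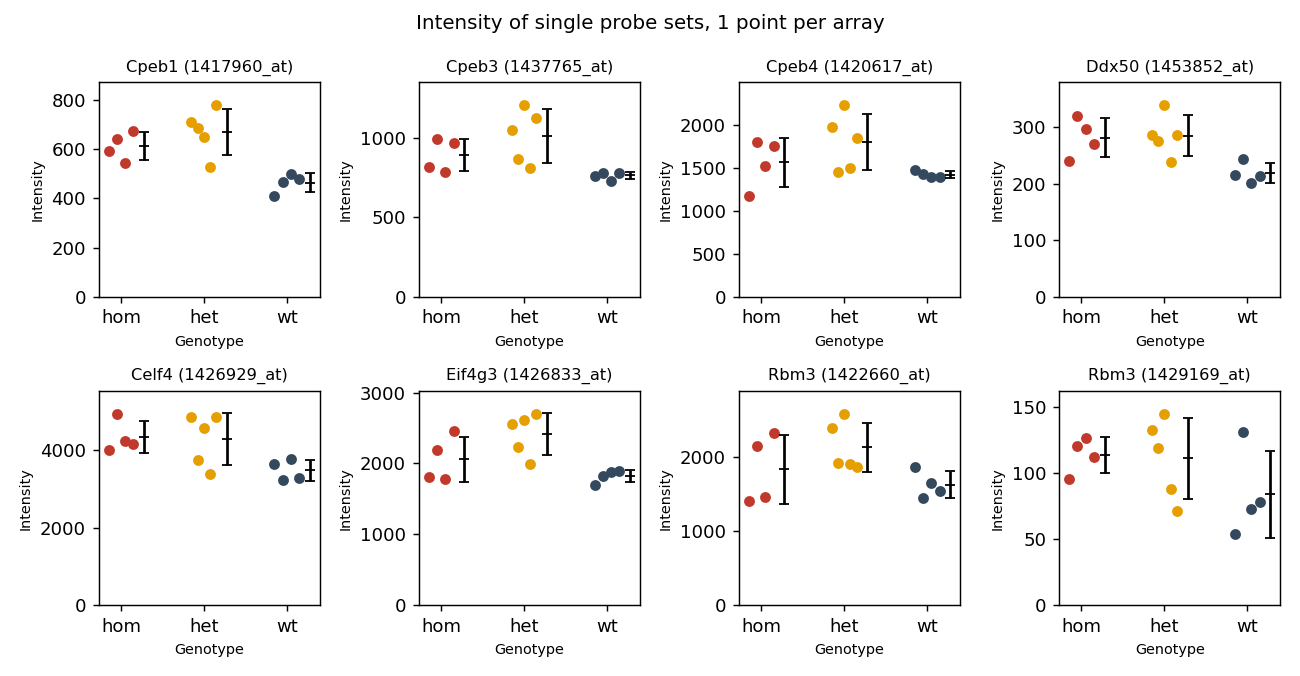
Intensity (y axis, linear) of 8 member probe sets in homozygous (hom), heterozygous (het) and wild-type (wt) arrays (x axis), 1 point per array, with the group mean and SD as a bar at the right of each group. Cpeb1 and the brighter Cpeb3 probe set, the one drawn, show no overlap of wild-type with mutant arrays. The 2 Rbm3 probe sets differ in which wild-type array is high.

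Genes with Eif symbols made up 11 probe sets of 10 genes. They include the Argonautes and the kinase Eif2ak2 beside the initiation factors. Their median log2 difference was 0.27 between heterozygous and wild type (range 0.16, for Eif2ak2, to 0.40). Eif4g3, a scaffold that joins the cap-binding protein to the small ribosomal subunit, had the largest difference. On its brighter probe set it had 1814, 2185, 1782 and 2453 in homozygous, 2556, 2233, 2606, 1997 and 2696 in heterozygous and 1697, 1827, 1876 and 1897 in wild-type arrays. All heterozygous arrays lay above the wild-type arrays, while homozygous arrays 1 and 3 lay within them. The log2 difference was 0.40 ± 0.12 between heterozygous and wild type and 0.16 ± 0.12 between homozygous and wild type (adjusted p = 0.313 and 0.909). The dimmer probe set gave 0.27 and 0.06. Eif1ax, which helps the ribosome scan for the start codon, had 1158, 1595, 1206 and 1828 in homozygous, 1738, 1361, 1725, 1303 and 1781 in heterozygous and 1098, 1249, 1397 and 1199 in wild-type arrays, and its groups overlapped. Eif1b, Eif2s2 (a subunit of eIF2), Eif4e2 (a cap-binding repressor), Eif4g1 and Eif5b (which joins the ribosomal subunits) lay between 0.27 and 0.30 on the same scale.

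The Argonautes, which carry microRNAs to their targets, are listed under the older symbols Eif2c1 (Ago1) and Eif2c2 (Ago2). Eif2c2 had 171, 197, 207 and 177 in homozygous, 195, 136, 204, 168 and 179.5 in heterozygous and 154, 131, 163 and 163 in wild-type arrays. All homozygous arrays lay above the wild-type arrays, and heterozygous array 2 lay among them. The log2 difference was 0.27 ± 0.13 between homozygous and wild type and 0.18 ± 0.12 between heterozygous and wild type (adjusted p = 0.909 and 0.533). Eif2c1 differed by 0.14 and 0.26.

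Eif2ak2 (PKR), a kinase that binds double-stranded RNA and shuts off eIF2, had 88.0, 121, 83.4 and 112 in homozygous, 99.0, 79.3, 98.0, 72.9 and 85.0 in heterozygous and 63.6, 78.5, 86.9 and 76.2 in wild-type arrays. Homozygous array 3 and 3 of the heterozygous arrays lay within the wild-type range. Its log2 difference was 0.34 ± 0.13 between homozygous and wild type and 0.16 ± 0.13 between heterozygous and wild type (adjusted p = 0.909 and 0.583). Ddx58 (RIG-I), a helicase that senses viral RNA, had 41.9, 56.8, 59.1 and 39.3 in homozygous, 37.7, 41.9, 47.5, 47.8 and 39.1 in heterozygous and 40.1, 37.4, 36.9 and 41.9 in wild-type arrays. It was dim on every array, and only homozygous arrays 2 and 3 stood above the rest. Eif2ak2 and Ddx58 were 2 of the 5 member probe sets listed through the homozygous comparison alone.

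The DEAD-box and DEAH-box helicases were the largest role group, with 13 probe sets of 12 genes and a median log2 difference of 0.28 between heterozygous and wild type (range 0.09 to 0.35). Ddx50, a nucleolar helicase, had 240.1, 321, 297 and 271 in homozygous, 287, 276, 339, 239 and 287 in heterozygous and 216, 244, 202 and 215 in wild-type arrays. Wild-type array 2 overlapped with the lowest array of each mutant group. Its log2 difference was 0.34 ± 0.13 between homozygous and wild type and 0.35 ± 0.12 between heterozygous and wild type (adjusted p = 0.909 and 0.360). After centring, no wild-type array of Ddx50 overlapped with either mutant group. Ddx19b, which helps release mRNA at the nuclear pore, had 351, 436, 371 and 454 in homozygous, 479, 398, 502, 377 and 443 in heterozygous and 373, 385, 362 and 335 in wild-type arrays, and its groups overlapped. The probe sets of Ddx49 (0.31 and 0.28 between heterozygous and wild type), Ddx27 and Ddx55, all of ribosome assembly, lay near those of Ddx46 (an early spliceosome helicase), Ddx41, Ddx28, Ddx24, Dhx9 and Dhx57, with 0.24 to 0.31.

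Among the splicing factors, the single-gene groups gave nearly the same differences between heterozygous and wild type. Hnrnpu, an hnRNP that also binds the nuclear scaffold, differed by 0.32 ± 0.12, Sf3b3, a subunit of the U2 particle, by 0.30 ± 0.12, and Snrpn, a neuronal Sm protein of the imprinted Prader-Willi region, by 0.29 ± 0.11 (adjusted p = 0.393, 0.418 and 0.403). Snrpn had 615, 796, 647 and 826 in homozygous, 857, 771, 852, 735 and 825 in heterozygous and 624, 665, 701 and 638 in wild-type arrays. All heterozygous arrays were above all wild-type arrays, whereas homozygous arrays 1 and 3 were not. The SR-related genes Sfrs18 (Pnisr), Srsf12 (Srek1) and Srsf15 (Scaf4), named by their current symbols in brackets, lay between 0.27 and 0.30.

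Prpf39 and Prpf40b belong to or bind the U1 particle, which marks the start of an intron. Prpf39 had 565, 753, 627 and 681 in homozygous, 779, 674, 797, 599.5 and 640.1 in heterozygous and 569, 582, 573 and 562 in wild-type arrays. Its wild-type arrays were tightly grouped below all heterozygous arrays, with homozygous array 1 among them. The log2 difference was 0.27 ± 0.12 between heterozygous and wild type (adjusted p = 0.430). Prpf40b differed by 0.23 between homozygous and wild type and by 0.29 between heterozygous and wild type.

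The Rbm proteins share the RNA recognition motif and little else. Rbm20, a splicing repressor best known from titin in heart, had 57.0, 104, 55.8 and 93.4 in homozygous, 69.2, 63.8, 107, 50.6 and 72.6 in heterozygous and 50.1, 60.1, 49.3 and 51.7 in wild-type arrays. Homozygous arrays 2 and 4 and heterozygous array 3 were high, heterozygous arrays 1, 2 and 5 lay less far above the wild-type arrays, and the rest lay within the wild-type range. Its log2 difference was 0.41 ± 0.17 between homozygous and wild type and 0.34 ± 0.16 between heterozygous and wild type (adjusted p = 0.909 and 0.455).

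The 2 probe sets of Rbm3, a cold-inducible protein, differed in their order of arrays. On the dimmer one Rbm3 had 95.6, 121, 126 and 112 in homozygous, 133, 119, 145, 88.4 and 71.1 in heterozygous and 54.2, 131, 73.0 and 78.3 in wild-type arrays. Wild-type array 2 was above all 4 homozygous and 3 of the heterozygous arrays. On the brighter one it had 1400.5, 2144, 1462 and 2312 in homozygous, 2381, 1914, 2573, 1897 and 1866 in heterozygous and 1865, 1449, 1645 and 1543 in wild-type arrays, and wild-type array 2 was the lowest of its group. The dimmer probe set differed by 0.42 ± 0.19 between homozygous and wild type, the brighter by 0.14 ± 0.15 (adjusted p = 0.909 each). Between heterozygous and wild type they gave 0.36 and 0.38. Rbm15b, an adaptor of the RNA methylation complex, Rbm5, a splicing regulator, and Rbm18 differed between heterozygous and wild type by 0.27, 0.30 and 0.24.

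Celf4, a neuronal protein that binds many synaptic mRNAs, had 4012, 4926, 4232 and 4154 in homozygous, 4862, 3747, 4561, 3380.3 and 4842 in heterozygous and 3629.6, 3221, 3776 and 3269.8 in wild-type arrays on its dimmer probe set. All homozygous arrays lay above the wild-type arrays, while heterozygous arrays 2 and 4 overlapped with them. The log2 difference was 0.32 ± 0.12 between homozygous and wild type and 0.29 ± 0.11 between heterozygous and wild type (adjusted p = 0.909 and 0.405). The brighter probe set gave 0.29 and 0.30, but there homozygous array 1, at 4849.6, lay below wild-type array 3, at 4865.6. After centring, homozygous arrays overlapped with wild-type arrays on both Celf4 probe sets.

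In homozygous striatum, all 49 members again had a higher mean than in wild type, by a median of 0.16 on the log2 scale, against 0.19 for the other listed rows. Called members were 0, against 0.00887% of the array, and the lowest adjusted p was 0.909. Without adjustment 9 had p under 0.05 and were higher, against 2.81% of the array and 20.8% of the other listed rows. All homozygous arrays lay above all wild-type arrays in 4 probe sets, of Celf4, Cpeb1, Cpeb3 and Eif2c2. The share was 8.16% of the members, 1.30% of the array and 8.34% of the other listed rows. After centring the median was 0.07, 46 were higher, and the 3 exceptions included Ddx24 and the dimmer Eif4g3 probe set. Of the centred members 7 had an unadjusted p under 0.05, against 1.88% of the centred array and 14.3% of the other listed rows. For 2 (Ddx50 and Rbm15b) every homozygous array lay above every wild-type array, against 1.01% and 6.81%. The listing used this comparison too, so these counts test nothing. The unadjusted count before centring was 32 without homozygous array 1, 2 without homozygous array 2, 5 without wild-type array 1 and 5 without wild-type array 4. Over all 45101 probe sets, in either direction, it was 9419, 693, 1110 and 794, against 1363 with all arrays. Without the 4 arrays of most extreme brightness it was 20 for the members, with a median of 0.21, and 7424 for all probe sets. Among the listed glial markers, Itgam was higher and Gfap lower in homozygous than in wild-type arrays, neither past the test. The listing used this comparison and so favours such differences. Of 6 microglia markers 1 was listed, Itgam, at 139.7 to 169 in homozygous, 120.1 to 157 in heterozygous and 93.0 to 126 in wild-type arrays (log2 difference between homozygous and wild type 0.41, adjusted p = 0.909). Of 6 astrocyte markers 2 were listed, with summed intensities of 835 to 1543 in homozygous, 1237 to 1449 in heterozygous and 1083 to 1297 in wild-type arrays, Aldoc at a log2 difference of 0.20 and Gfap at -0.47 (adjusted p = 0.909 each). None of these markers was at 0 on any array, and the part of these cells in the members' values was not tested. No oligodendrocyte, endothelial or choroid plexus marker of the lists used was among the listed rows.

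**Figure D4:**
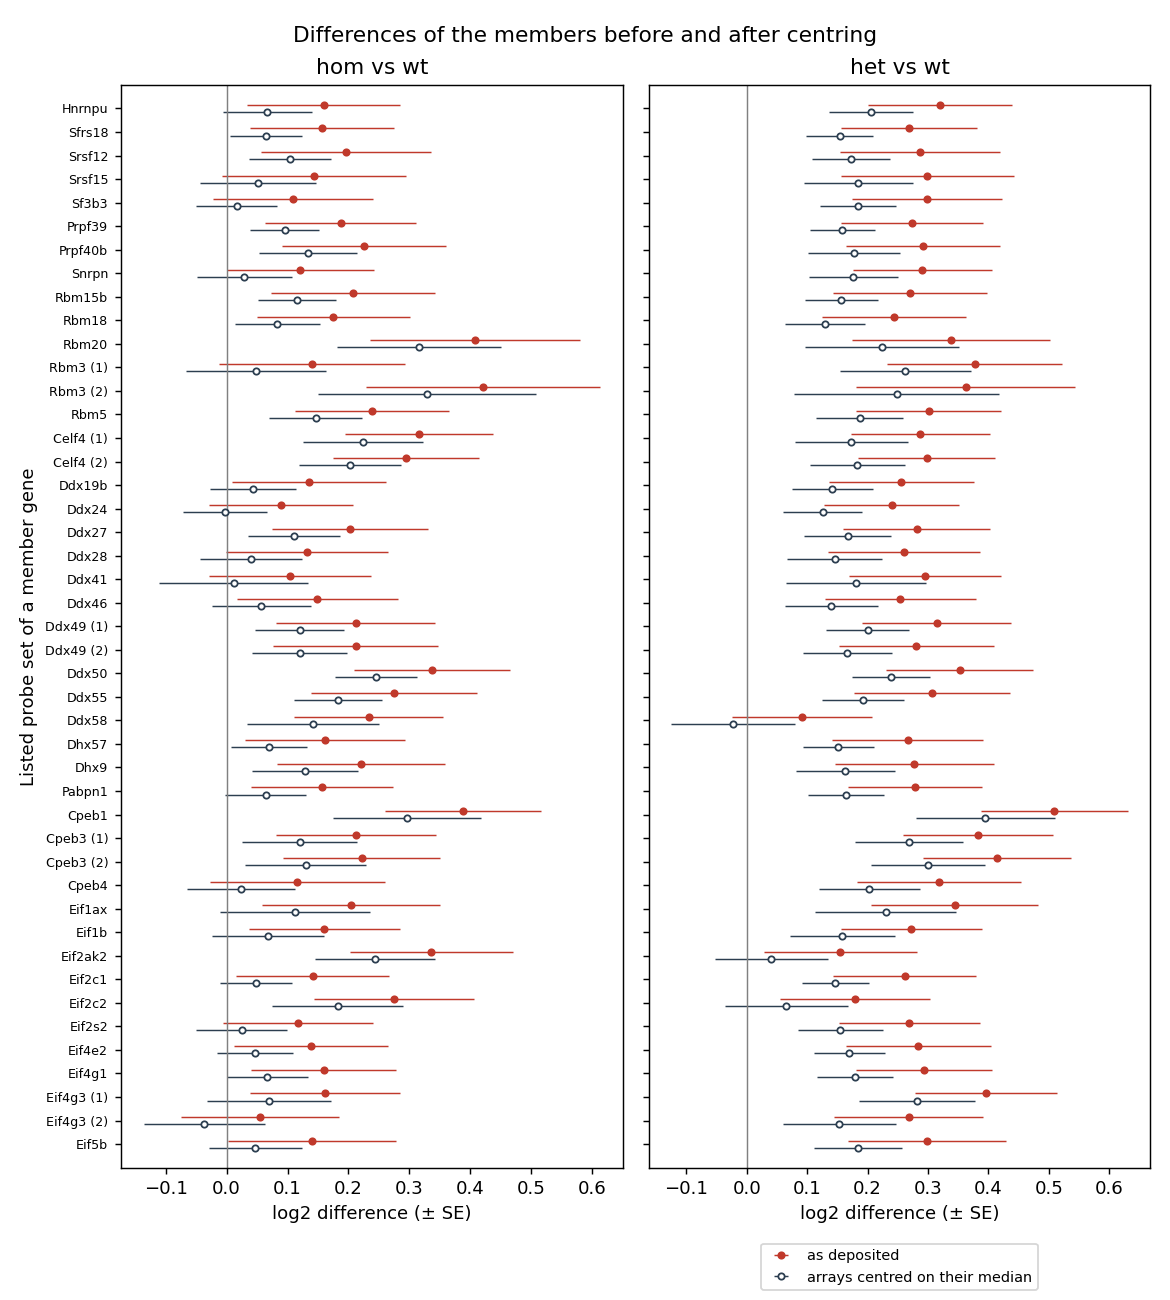
Log2 difference with its SE (x axis) of 45 of the 49 member probe sets (rows) for homozygous against wild type (left) and heterozygous against wild type (right), as deposited (filled) and with each array centred on its median (open). Centring moved every point to the left, and Cpeb1 has the largest heterozygous difference in both forms.

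Between homozygous and heterozygous striatum, 42 members were lower and 7 higher, with a median log2 difference of -0.12, against -0.14 for the other listed rows. None had an adjusted p under 0.05, against 0.00665% of the array, and the lowest adjusted p was 1. At an unadjusted p under 0.05 the count was 0 in either direction. Over the array it was 0.614% higher and 2.05% lower, and over the other listed rows 1.90% and 14.7%. No member had groups that did not overlap, against 0.0887% above and 0.386% below over the array. Among the 4374 other listed rows 8 lay above and 106 below. After centring, 1 member was higher and 4 lower at an unadjusted p under 0.05. The shares were 2.26% and 3.39% of the centred array and 3.93% and 18.3% of the other listed rows. All homozygous arrays then lay below all heterozygous arrays in 2 members, Sf3b3 among them, against 0.876% of the centred array. They lay above them in 0, against 0.603%. Among the 4374 other listed rows 137 lay below and 58 above. The 39 probe sets listed through the heterozygous comparison alone were all lower in homozygous striatum (median -0.13), and the 5 listed through the homozygous comparison alone were all higher (median 0.10). The listing itself favours these directions. Without the 4 arrays of most extreme brightness the median over all members was 0.02.

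Other genes of RNA metabolism in the table, outside the naming rule, were counted from lists. Of 36 further splicing regulators 11 were listed, with 13 probe sets, all higher in heterozygous than in wild-type arrays by a median of 0.31, and 12 had an unadjusted p under 0.05. Of 21 transport and repressor genes 6 were listed outside the members (6 probe sets, median 0.29, 6 at an unadjusted p under 0.05). The 21 also include Ago1 and Ago2, which are listed as the members Eif2c1 and Eif2c2 and were left out of this count. Of 17 elongation, termination and signalling genes 4 were listed (6 probe sets, median 0.27, 5 such), and of 19 mRNA decay genes 4 were listed (5 probe sets, median 0.28, 4 such). No probe set of these lists was called in any comparison. Of the other listed rows as a whole 98.1% were higher and 83.7% had such a p, since listing used this comparison, so the counts say nothing particular about these lists. Elavl4, a neuronal stabiliser of mRNAs, had the largest differences among the splicing regulators, with 0.80, 0.71 and 0.71 on 3 probe sets.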

How the data were processed

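The intensities were made by the authors with PLIER (per the submitters' processing notes, version not given) and deposited on a linear scale for 45101 probe sets. The listed table also holds the authors' deposited raw and adjusted p-values and their fold changes. Its wild-type and homozygous columns are exchanged, so the sample-keyed values were used. Genes were named from the listed table, whose 49 member probe sets all matched RefSeq GRCm38.p6 by Entrez ID.

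Intensities were turned into log2(value + 16), which understates differences of dim probe sets. Limma 3.58.1 (R 4.3.3; lmFit, eBayes with an intensity trend) modelled the 13 arrays by genotype alone, with two-sided tests, with Benjamini-Hochberg adjustment over all 45101 probe sets and a threshold of 0.05. The number of arrays limits the precision, since arrays have no depth.

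The members, lists and the rule for named genes were chosen with earlier results of these data known. The rule took the 5 members with the smallest p in each direction of each comparison and 2 genes per role group. Some genes that meet it are not reported here. Other genes are named to account for the members, and Elavl4 and Tial1 were chosen after their values were seen. Alternatives were offsets of 1 and 32, array weights, median centring, quantile normalization, a replicate block, fits without the trend or without the third group, the brighter or the listed probe sets alone, and each array left out. Leaving out the 4 arrays of most extreme brightness was added after seeing the data.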

Additional observations from a re-analysis of the deposited data

Results flagged for a closer look

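Of 78 groups of 4 or 5 arrays examined for a single array far from the rest, 2 had one, and chance alone gives about 1 in 20. The first was the dimmer Ddx49 probe set, at 70.6 in wild-type array 4 while the other wild-type arrays lay between 75.8 and 76.8. The second was Srsf12, at 279.4 in wild-type array 1 while the others lay between 248.8 and 251.9.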

How the results depend on the processing

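The members' precision is limited by 4 or 5 arrays a group and by brightness that differs between arrays. Array weights called 13 of 49 members between homozygous and wild type, against 8390 of all 45101 probe sets, and 7 between homozygous and heterozygous, against 5698, with a weight of 12.05 on homozygous array 3 and 0.21 on homozygous array 1. A fit of the listed probe sets alone, with adjustment over them, called 5 members between heterozygous and wild type, against 673 of all 4423 rows. That fit ignores how the rows were selected. Quantile normalization gave a heterozygous median of 0.13. With each array left out in turn, 0 to 1 members were called between heterozygous and wild type and 0 in the other comparisons. The 1 was Cpeb1, without heterozygous array 4, in a fit that called 213 of all 45101 probe sets. With an array left out, the medians ran from 0.11 to 0.26 for homozygous against wild type. They ran from 0.23 to 0.34 for heterozygous against wild type and from -0.17 to -0.03 for homozygous against heterozygous. The replicate number as a block called 0 members in all 3 comparisons. Its unadjusted count between heterozygous and wild type was 14, against 2498 of all 45101 probe sets. The deviations of same-numbered arrays from their group means correlated at -0.45 to 0.19 over all probe sets. By these deviations, an array's best match in the other genotype bore its own number for 0, 2 and 0 of 8 arrays. The deviations also carry array brightness, so they cannot settle whether same-numbered arrays are paired. Of 1287 alternative values of named genes 1275 kept their sign. Between homozygous and wild type, the dimmer Eif4g3 probe set was at -0.0388 with quantile normalization, -0.0368 with centring, -0.1962 with array weights and -0.0112 without the 4 arrays of most extreme brightness, and ran from -0.0148 to 0.1445 with an array left out. Array weights gave -0.0108 for the brighter Eif4g3 probe set and -0.1077 for the brighter Rbm3 probe set, and quantile normalization gave -0.0011 for Snrpn. Between homozygous and heterozygous, Rbm20 was at -0.1059 with array weights and, with an array left out, ran from -0.0637 to 0.1947, below 0 without homozygous array 2, homozygous array 4 or heterozygous array 4. The cause was not tested. The median over all array probe sets of member genes, listed or not, was planned and not run, since unlisted probe sets have no gene name here.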

Other observations

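Tial1, an RNA-binding protein of stress granules that also regulates splicing, was listed with values in separate high and low ranges that crossed the genotypes. Tial1 had 353, 371, 430.1 and 85.6 in homozygous, 354, 235, 91.6, 286 and 281 in heterozygous and 100.4, 92.3, 80.2 and 260.0 in wild-type arrays. Homozygous array 4, heterozygous array 3 and wild-type arrays 1 to 3 were at or below about 100.4, and the other arrays were at 235 or more. The log2 difference was 1.07 between homozygous and wild type and 0.86 between heterozygous and wild type (limma, adjusted p = 0.909 and 0.421). Elavl4, by contrast, varied between arrays in a graded way: on the probe set with the largest difference it had 526, 573, 322 and 974 in homozygous, 881, 765, 758, 584 and 1064 in heterozygous and 288, 524, 620.3 and 433 in wild-type arrays.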
